A study of Homo sapiens with 15 samples.

Results

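The genes described here are 55 that act in mitosis: the cyclins and kinases that start it, the kinetochore and spindle, the condensins that compact chromosomes, and the machinery that ends it. The list was drawn up by gene name, from what each gene is known to do. All 55 stood in the table of 26475 genes, and 54 of them were among the 12795 genes with enough counts to test. The gene left out of the tests was SPC24, which had 22, 10 and 6 counts in the untreated libraries and between 2 and 12 counts in each of the others. The cells were A549, an epithelial line from a human lung adenocarcinoma, and RNA was profiled after 48 h in 5 groups of 3 libraries. The groups were untreated cells and cells given the cytokine interleukin 4 (IL4) at 10 ng/ml, alone or with a further agent. The agents were Compound A, a Smartpool siRNA labelled only as control (control siRNA), and a Smartpool siRNA against ALOX15 at 1 uM. A Smartpool is a mixture of several siRNAs. All 4 treated groups thus carried IL4, and the untreated group received no siRNA. What Compound A is, and at which dose it or the control siRNA was given, is not stated in the sources used here. ALOX15 encodes a lipoxygenase that IL4 is known to induce.

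Cells enter mitosis when CDK1, bound to cyclin B, is switched on by CDC25 phosphatases. Chromosomes are then condensed, attached through kinetochores to spindle microtubules, held by a checkpoint until every one is attached, and pulled apart after the anaphase-promoting complex has marked securin and cyclin B for destruction. Most of these genes are transcribed late in the cell cycle, under FOXM1, B-MYB (MYBL2) and the MuvB complex, and their RNA is low in cells that are not dividing, so they are widely read as markers of the dividing fraction of a culture.

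Promoters of such genes are known for a cell cycle homology region, whose core letters are TTTGAA, and for CCAAT boxes, the site of the factor NF-Y. RefSeq start sites on GRCh38.p14 were matched by symbol for 47 of the 55 genes, in 59 windows that ran from 250 bases before to 50 bases after a start. No window was matched for AURKA, BIRC5, BUB3, FOXM1, RACGAP1, TPX2, TTK or UBE2C. TTTGAA stood on either strand in 37 of the 59 windows (62.7%, 95% Wilson interval 49.9 to 73.9%), against 15.2% of all 35116 windows and 10.4% of the windows of tested genes. Some genes had several windows, which can overlap, so the interval treats as independent what is not. Counted by gene, 34 of the 47 held TTTGAA in at least 1 window (72.3%), against 13.7% of tested genes. CCAAT stood in 42 of 59 (71.2%), against 34.6% of all windows, and both motifs stood in 49.2%, against 5.90%. Stretches of 150 bases upstream of 7 genes are given here as examples, to show where the motifs lie. Capitals mark TTTGAA or CCAAT, or their reverse complements TTCAAA and ATTGG. The first 5 hold both motifs, the sixth holds CCAAT only, and the last holds neither.
MKI67, chr10:128126424-128126573, - strand: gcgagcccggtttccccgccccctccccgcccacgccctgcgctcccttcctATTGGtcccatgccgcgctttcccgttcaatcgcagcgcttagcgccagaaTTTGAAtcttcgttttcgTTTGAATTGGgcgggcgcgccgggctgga
KIF11, chr10:92592980-92593129, + strand: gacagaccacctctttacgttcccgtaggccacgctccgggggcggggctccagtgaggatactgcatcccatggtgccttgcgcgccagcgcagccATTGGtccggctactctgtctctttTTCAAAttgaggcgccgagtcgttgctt
ESPL1, chr12:53268149-53268298, + strand: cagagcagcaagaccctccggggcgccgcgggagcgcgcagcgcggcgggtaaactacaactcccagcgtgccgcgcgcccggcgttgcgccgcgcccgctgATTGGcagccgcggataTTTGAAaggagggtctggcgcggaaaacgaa
CDC20, chr1:43358801-43358950, + strand: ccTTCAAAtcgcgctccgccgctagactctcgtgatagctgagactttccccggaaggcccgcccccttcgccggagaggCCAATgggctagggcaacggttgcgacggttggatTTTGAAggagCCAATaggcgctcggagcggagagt
TOP2A, chr17:40417951-40418100, - strand: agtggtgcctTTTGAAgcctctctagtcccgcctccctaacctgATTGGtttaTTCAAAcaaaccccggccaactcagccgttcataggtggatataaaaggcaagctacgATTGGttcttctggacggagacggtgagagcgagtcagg
NCAPH, chr2:96335616-96335765, + strand: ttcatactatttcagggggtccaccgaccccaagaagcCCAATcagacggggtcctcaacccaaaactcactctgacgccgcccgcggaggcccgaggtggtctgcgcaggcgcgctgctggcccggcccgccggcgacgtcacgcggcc
MYBL2, chr20:43666869-43667018, + strand: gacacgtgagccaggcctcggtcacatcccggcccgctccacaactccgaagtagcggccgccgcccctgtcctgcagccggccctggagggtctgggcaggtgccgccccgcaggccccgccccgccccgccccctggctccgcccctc
A match to these letters is a description of the sequence and not of a bound site. The genes with and without TTTGAA had medians close to each other in the comparisons described next, with no test made. With IL4 the median log2 change was -0.62 for the 34 tested genes with the motif and -0.66 for the 12 without, and with Compound A it was -0.38 and -0.40.

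The libraries held between 6407936 and 11031246 estimated counts, and levels are given as CPM, counts per 1 000 000 counts after scaling for library composition. Of the epithelial markers KRT8, KRT18, CDH1 and KRT19 had medians of 4232, 3847, 149.7 and 55.4 CPM over the 15 libraries and EPCAM a median of only 8.01 CPM. Of 6 alveolar type II markers, the surfactant genes SFTPA1, SFTPB and SFTPC and the lung factor NKX2-1 had at most 2 counts in any library, while ABCA3 stood at 35.9 to 71.8 CPM and LAMP3 at 1.34 to 6.58 CPM. PTPRC and CD3E were at 0 in every library, and CDH5 had at most 1 count. The 5 fibroblast markers summed to 8.60 to 10.9 CPM in untreated cells, 19.1 to 26.5 with IL4, 8.92 to 12.2 with Compound A, 15.6 to 18.9 with control siRNA and 17.8 to 20.8 with ALOX15 siRNA, mostly COL1A1, while DCN and PDGFRB had at most 3 counts. The 5 epithelial markers summed to 5173 to 5854 CPM in untreated cells and to 7341 to 10533 CPM in the groups with IL4, nearly all of it KRT8 and KRT18, while EPCAM went the other way, from a mean of 13.9 CPM untreated to 9.57 with IL4 and 7.42 with Compound A. These sums moved with the groups compared below, and their part in the results was not tested. ALOX15 was almost absent from untreated cells (0, 0.110 and 0.299 CPM) and present after IL4 (6.00, 4.72 and 5.09 CPM). With Compound A it stood at 2.59, 2.23 and 1.81 CPM, below every IL4 and control siRNA library. Its siRNA brought it from 3.91, 3.56 and 3.28 CPM in the control siRNA libraries to 0.136, 0.314 and 0.259 CPM, so the siRNA labels matched the target (log2 change -3.85 ± 0.43, edgeR adjusted p = 8.47e-05). IL4 replicate 1 stood apart from the other libraries: its second principal component was 34.4, against -21.2 to 11.3 elsewhere, and its levels followed transcript GC content, as described below.

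Summed over the 55 genes, their RNA was highest in untreated cells, lower in every IL4 library and lowest with Compound A. The sums were 4110, 4090 and 4015 CPM in untreated cells and 2741, 2857 and 2725 CPM with IL4. With Compound A they were 2489, 2140 and 2203 CPM, the control siRNA libraries held 2699, 2651 and 2772 CPM, and those given ALOX15 siRNA held 2521, 2545 and 2478 CPM. As a share of the untreated mean, the group means were 68.1% with IL4, 55.9% with Compound A, 66.5% with control siRNA and 61.8% with ALOX15 siRNA. The 3 Compound A sums and the 3 ALOX15 siRNA sums overlapped, the Compound A group being the more spread (SD 186 against 34.2 CPM, n = 3). Gene by gene, all 54 tested genes had their highest group mean in untreated cells. The lowest mean was with Compound A for 46 of them, with ALOX15 siRNA for BUB1B, MAD2L1, CDC20, PTTG1, ESPL1, HMMR and ECT2, and with IL4 alone for BUB3. In bulk RNA, fewer dividing cells and less of these RNAs per cell cannot be told apart.

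**Figure D1:**
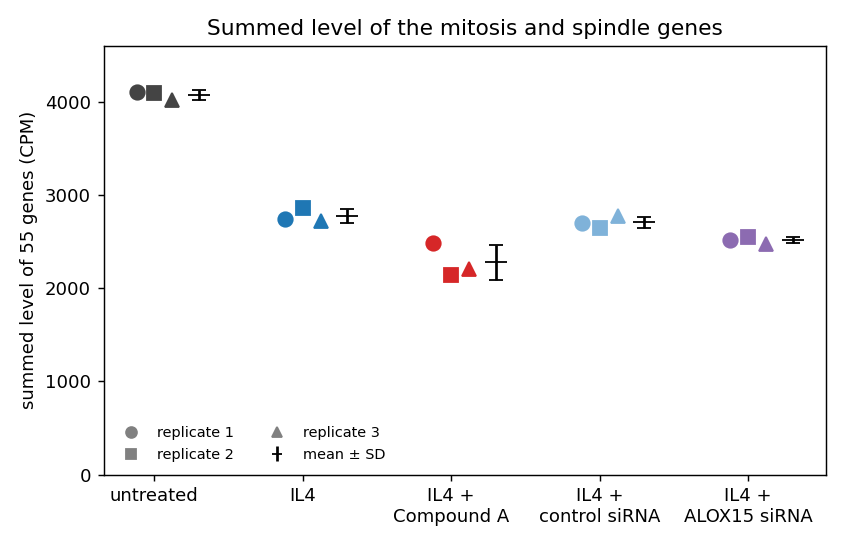
Summed level of the 55 mitosis and spindle genes in CPM (vertical axis) in each of the 15 libraries, by group, with the group mean and SD beside the points. The untreated libraries sit between 4015 and 4110 CPM, and every library with IL4 sits between 2140 and 2857 CPM.

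IL4 against untreated cells asked what the cytokine alone did to these genes. Of the 54 tested, 49 fell and none rose, where over all 12795 genes 11.6% fell and 11.2% rose (adjusted p under 0.05, edgeR quasi-likelihood test with Benjamini-Hochberg adjustment over all genes). None was higher at an unadjusted p under 0.05 either, beside 16.5% of all genes, and DESeq2 gave 48 that fell and 0 that rose. The median log2 change was -0.62, against -0.02 over all genes tested, with a range from -0.99 for TTK to -0.24 for SMC4. For 50 of the 54 the 3 IL4 libraries lay below all 3 untreated ones, as they did for 18.0% of all genes. The 5 that did not pass were INCENP, UBE2C, NDC80, MYBL2 and CDCA3, all with log2 changes below 0. The labels do not say whether the 3 libraries of a group came from separate cultures, so a p-value here reflects the spread among these libraries alone, which may be technical. Leaving out IL4 replicate 1 gave 53 fallen genes of 55 tested, beside 10.9% of all genes. Of the 49 calls, those of CDC25B, CDC25C, ESPL1, SMC4, BUB3, AURKB and KIF20A ended under at least 1 other setting. Log2 changes are given with their standard error throughout.

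**Figure D2:**
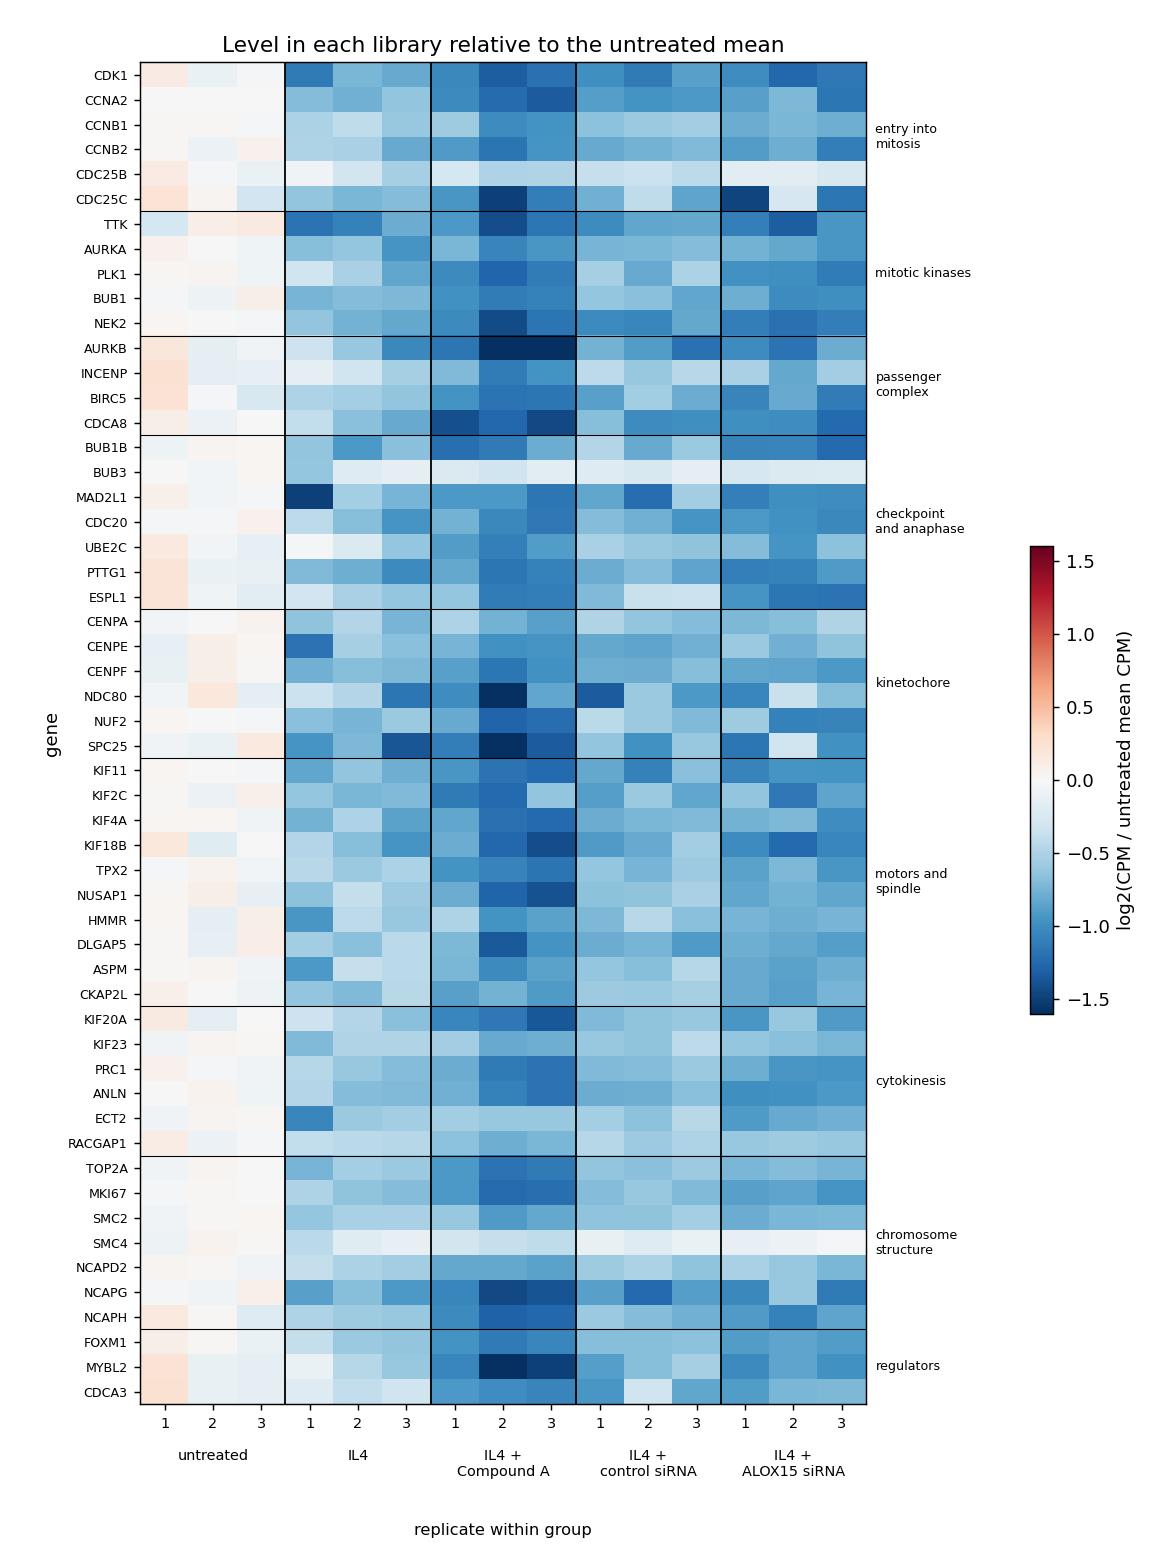
Level of each of the 54 tested genes (rows, grouped by role) in each library (columns), as log2 of its CPM over the untreated mean, with blue below and red above that mean. Columns of the IL4 groups are blue for nearly every gene, and the Compound A columns hold the darkest blue for most of them, while BUB3, SMC4 and CDC25B are the palest rows.

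The 6 genes that start mitosis all fell with IL4, although 2 of these calls, CDC25B and CDC25C, rest on the setting and on single libraries. CDK1, the kinase that drives entry, stood at 68.1, 57.5 and 60.5 CPM in untreated cells and 28.2, 37.2 and 35.4 CPM with IL4. No IL4 library reached the untreated range, and CDK1 fell by 45.9% (log2 change -0.89 ± 0.11, edgeR adjusted p = 2.52e-06). Its partners, the cyclins CCNA2, CCNB1 and CCNB2, fell by 38.3%, 29.5% and 34.0%. CDC25B, a phosphatase that activates CDK1, moved least in this group, from 355, 316 and 301 CPM to 311, 265 and 225 CPM. Its groups overlapped, since IL4 replicate 1 exceeded untreated replicate 3 (log2 change -0.28 ± 0.09, edgeR adjusted p = 0.0312), and the edgeR adjusted p rose as far as 0.195 under the other settings. CDC25C, the other phosphatase, fell by 38.6% from a low level, a mean of 7.18 ± 1.27 CPM (SD, n = 3), and did not pass with DESeq2 or without either of untreated replicates 1 and 2 or IL4 replicates 2 and 3.

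All 5 mitotic kinases fell. TTK, the kinase that sets off the spindle checkpoint, showed the largest change of all members, from 19.1, 25.0 and 25.6 CPM to 10.2, 11.01 and 13.4 CPM. The 2 sets of libraries were well separated, and TTK fell by 49.7% (log2 change -0.99 ± 0.15, edgeR adjusted p = 4.24e-05). AURKA, which builds spindle poles, BUB1, which acts at kinetochores, and NEK2, which splits centrosomes, fell by 40.4%, 39.1% and 39.9%. PLK1, a kinase needed from mitotic entry to cytokinesis, fell least of the 5, from 61.9, 62.5 and 58.1 CPM to 48.8, 42.5 and 34.3 CPM, with the IL4 libraries more spread than the untreated ones (log2 change -0.54 ± 0.10, edgeR adjusted p = 0.00067).

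Of the chromosomal passenger complex, which corrects faulty attachments and later guides cytokinesis, 3 of 4 genes fell. Its kinase AURKB went from 26.6, 21.4 and 22.6 CPM to 18.7, 15.5 and 11.5 CPM. AURKB fell by 35.7% (log2 change -0.64 ± 0.16, edgeR adjusted p = 0.00664), though IL4 replicate 1 lay well above its group mates. BIRC5 (survivin) and CDCA8 (borealin), 2 of its targeting subunits, fell by 32.6% and 34.8%. The scaffold INCENP, at 32.7, 24.7 and 25.3 CPM untreated and 24.7, 22.2 and 19.1 CPM with IL4, did not pass (log2 change -0.34 ± 0.13, edgeR adjusted p = 0.0642), with IL4 replicate 1 as high as untreated replicate 2.

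Among the checkpoint and anaphase genes 6 of 7 fell. MAD2L1, the checkpoint protein that holds back CDC20, stood at 29.6, 27.1 and 27.3 CPM untreated and 9.96, 19.1 and 16.7 CPM with IL4. It was lower in all 3 IL4 libraries, and lowest by far in replicate 1 (log2 change -0.87 ± 0.17, edgeR adjusted p = 0.00063). BUB1B, its partner in the checkpoint complex, fell by 39.6%, CDC20, the activator of the anaphase-promoting complex, by 36.9%, the securin PTTG1 by 44.0%, and the separase ESPL1, which cuts cohesin, by 28.9%. BUB3, another checkpoint protein, fell by 19.2%, from 143, 138 and 146 CPM to 92.6, 123 and 129 CPM, and replicate 1 was again the lowest. UBE2C, the ubiquitin-conjugating enzyme of the anaphase-promoting complex, did not pass, at 30.4, 26.6 and 25.0 CPM and 26.7, 23.2 and 17.8 CPM (log2 change -0.29 ± 0.12, edgeR adjusted p = 0.108).

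Kinetochore genes fell in 5 of 6 cases. SPC25, a subunit of the NDC80 complex that holds microtubules, stood at 5.83, 5.62 and 6.72 CPM and then at 3.14, 3.67 and 2.35 CPM, or 65, 51 and 45 counts against 23, 28 and 18. The sets did not overlap (log2 change -0.98 ± 0.23, edgeR adjusted p = 0.00398). CENPA, the histone H3 variant that marks centromeres, moved least, from 17.7, 18.1 and 18.8 CPM to 11.6, 13.1 and 10.8 CPM (log2 change -0.61 ± 0.12, edgeR adjusted p = 0.000857). CENPE, a kinesin of the kinetochore, and CENPF, a large coiled-coil protein there, fell by 41.1% and 39.4%, and NUF2 by 37.2%. NDC80 was 35.0% lower but, at under 10 CPM in every library, its standard error was 0.23 and it did not pass (edgeR adjusted p = 0.0557).

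Every one of the 10 motor and spindle genes fell. KIF11, the kinesin that pushes spindle poles apart, went from 98.2, 95.7 and 93.4 CPM to 53.9, 61.9 and 55.9 CPM (log2 change -0.74 ± 0.09, edgeR adjusted p = 4.09e-06). TPX2, which brings AURKA to the spindle, changed least of the 10, from 121, 127 and 119 CPM to 89.5, 81.0 and 85.9 CPM (log2 change -0.51 ± 0.07, edgeR adjusted p = 2.01e-05). Both genes were tightly grouped and separated without overlap. The other kinesins KIF2C, KIF4A and KIF18B fell by 37.8%, 38.3% and 38.1%, where KIF4A had estimated rather than whole counts in 9 libraries. Spindle assembly and pole proteins NUSAP1, HMMR, DLGAP5, ASPM and CKAP2L fell by 31.3% to 35.5%.

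Cytokinesis genes fell in 6 of 6 cases. ECT2, the exchange factor that switches on RhoA at the cleavage furrow, went from 308, 330.2 and 324 CPM to 156, 213 and 217 CPM. The 2 higher IL4 libraries lay close together and replicate 1 lay below them (log2 change -0.71 ± 0.09, edgeR adjusted p = 7.47e-06). Its partners in the central spindle, RACGAP1 and the kinesin KIF23, fell by 25.8% and 31.7%, the former from 59.3, 51.5 and 53.3 CPM to 41.5, 40.6 and 40.0 CPM. PRC1, which bundles midzone microtubules, the kinesin KIF20A and the furrow protein anillin (ANLN) fell by 33.3%, 28.4% and 34.9%.

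All 7 genes of chromosome structure fell. The most abundant was TOP2A, the topoisomerase that untangles sister chromatids, at 425, 457 and 447 CPM untreated and 264, 305 and 294 CPM with IL4 (log2 change -0.62 ± 0.07, edgeR adjusted p = 5.51e-07). MKI67, the Ki-67 protein that coats mitotic chromosomes, stood at 222, 230.0 and 229 CPM and 161, 145 and 140.2 CPM (log2 change -0.61 ± 0.07, edgeR adjusted p = 3.29e-06). TOP2A and MKI67 were both lower in each IL4 library than in any untreated one. NCAPG, a condensin I subunit, had the largest change, from 36.8, 36.0 and 39.4 CPM to 20.5, 23.3 and 19.8 CPM, a fall of 43.2%. The condensin core subunits differed: SMC2 fell by 31.7%, but SMC4 by only 15.5%, from 221, 244 and 238 CPM to 174, 206 and 214 CPM. NCAPD2 and NCAPH, the other condensin I subunits, fell by 28.4% and 32.6%.

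Of the 3 regulators only FOXM1, the transcription factor of the late cell cycle, passed with IL4, at 88.3, 83.9 and 77.1 CPM untreated and 64.0, 55.2 and 53.7 CPM treated (log2 change -0.53 ± 0.08, edgeR adjusted p = 2.49e-05). MYBL2, the B-MYB factor, stood at 44.1, 34.5 and 33.8 CPM and 34.9, 27.3 and 24.7 CPM, with the groups overlapping through IL4 replicate 1 (log2 change -0.38 ± 0.14, edgeR adjusted p = 0.0588). CDCA3, a trigger of mitotic entry, had 120, 76 and 55 counts against 58, 53 and 56, or 10.8, 8.38 and 8.22 CPM against 7.91, 6.95 and 7.31 CPM, and did not pass (log2 change -0.32 ± 0.16, edgeR adjusted p = 0.166).

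**Figure D3:**
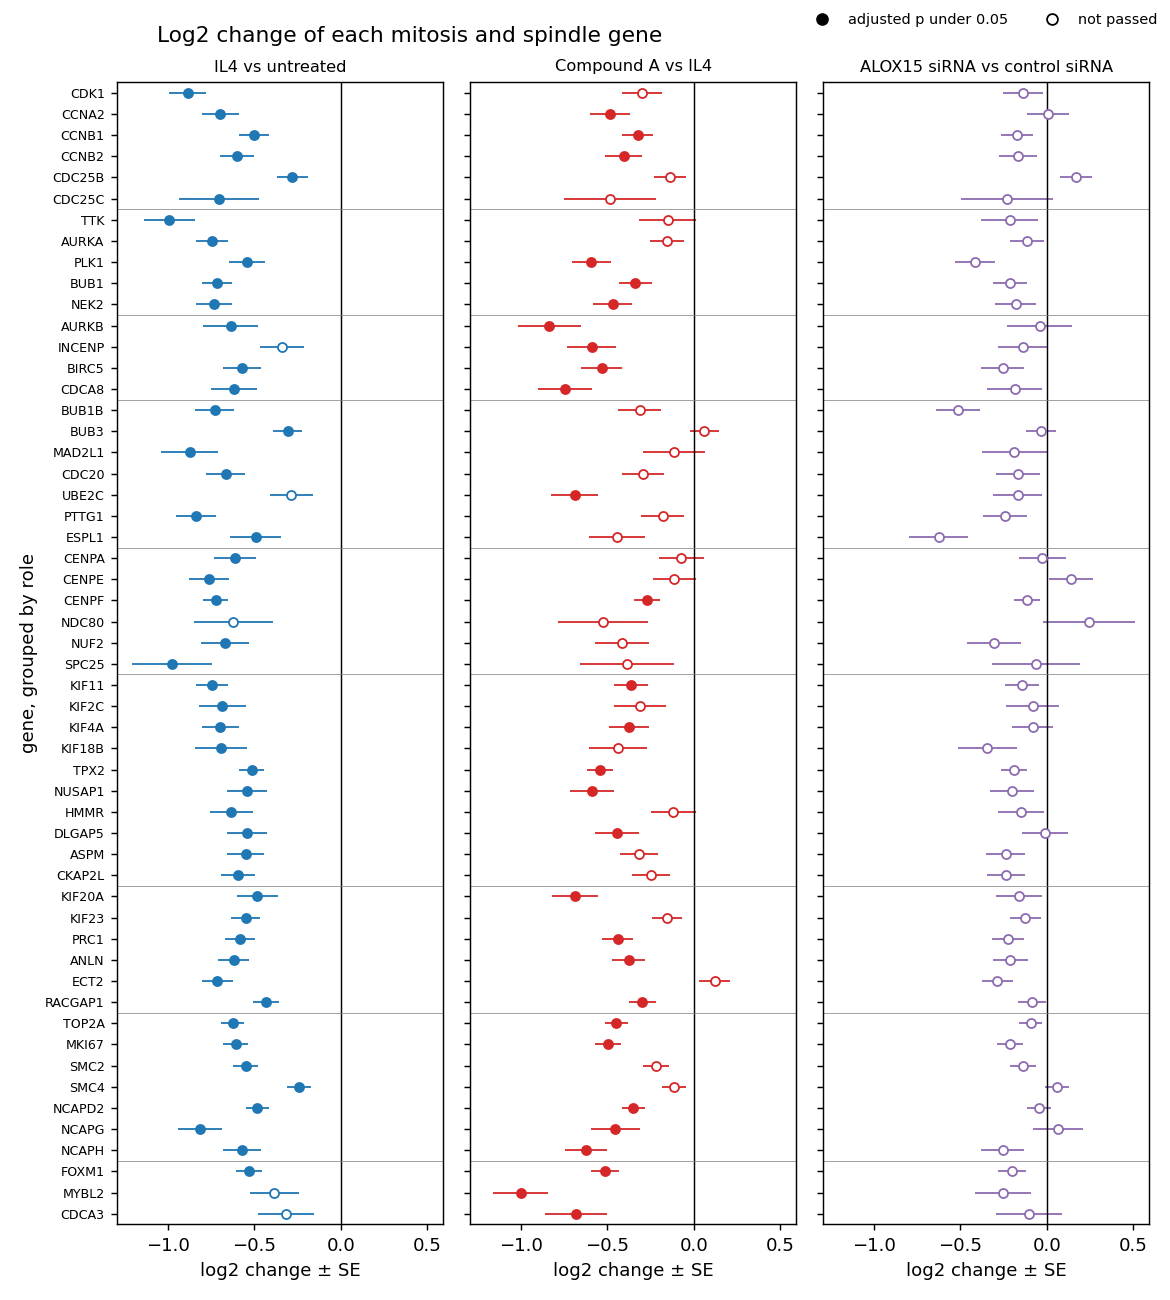
Log2 change ± SE of each of the 54 tested genes (rows, by role) for IL4 against untreated, Compound A against IL4, and ALOX15 siRNA against control siRNA, with filled points for an adjusted p under 0.05. In the first panel 49 points are filled, in the second 29 and in the third none, and nearly all points lie left of 0.

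Adding Compound A to IL4 lowered 29 of the 54 genes further and raised none, where 8.07% of all genes fell and 6.35% rose. None was higher at an unadjusted p under 0.05, beside 15.1% of all genes, and DESeq2 also gave 29 and 0. The median log2 change was -0.38, against 0.00 over all genes tested, and it ran from -1.0 for MYBL2 to 0.12 for ECT2. For 30 genes the 3 Compound A libraries lay below all IL4 libraries, against 15.7% of all genes. ECT2 and BUB3 were the only members with a value above 0, and neither passed. The count depended on single libraries: without Compound A replicate 2 it was 15, and a fit of the IL4 and Compound A libraries alone gave 12. Over all genes 3.68% and 2.14% fell in these 2 fits. Those that passed under all 25 settings tried were BIRC5, CDCA8, FOXM1, KIF20A, MKI67, MYBL2, NCAPD2, NCAPH, PLK1, TOP2A, TPX2 and UBE2C.

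All 3 regulators fell, and MYBL2 fell most of all members. It went from 34.9, 27.3 and 24.7 CPM with IL4 to 18.1, 11.9 and 13.3 CPM with Compound A, down by 50.1% (log2 change -1.0 ± 0.16, edgeR adjusted p = 0.000537). All 3 Compound A libraries lay below the lowest IL4 library, with replicate 1 the highest of them. FOXM1 went from 64.0, 55.2 and 53.7 CPM to 42.8, 38.0 and 40.3 CPM (log2 change -0.51 ± 0.08, edgeR adjusted p = 0.000382), and CDCA3 fell by 37.6%, at 41, 43 and 29 counts.

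The passenger complex fell as a whole, 4 genes of 4. AURKB stood at 18.7, 15.5 and 11.5 CPM with IL4 and 10.6, 7.33 and 7.55 CPM with Compound A. AURKB fell by 43.9% (log2 change -0.83 ± 0.18, edgeR adjusted p = 0.0054), and its Compound A libraries stayed below the lowest IL4 one. CDCA8 and INCENP fell by 40.3% and 33.6%, and BIRC5, the least changed of the 4, from 43.7, 42.2 and 39.8 CPM to 31.8, 27.3 and 27.8 CPM (log2 change -0.53 ± 0.12, edgeR adjusted p = 0.00578).

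Among the kinases PLK1, BUB1 and NEK2 fell and AURKA and TTK did not pass. PLK1 moved from 48.8, 42.5 and 34.3 CPM to 30.1, 25.3 and 27.9 CPM. Its groups were apart (log2 change -0.59 ± 0.11, edgeR adjusted p = 0.00202). TTK, the gene most lowered by IL4, moved little from there, at 10.2, 11.01 and 13.4 CPM and 12.2, 8.71 and 10.4 CPM with broad overlap (log2 change -0.15 ± 0.16, edgeR adjusted p = 0.557). Of the entry genes CCNA2, CCNB1 and CCNB2 fell, by 28.5%, 20.2% and 24.5%. CCNA2 went from 17.7, 16.8 and 18.4 CPM to 14.1, 12.2 and 11.3 CPM without overlap (log2 change -0.48 ± 0.12, edgeR adjusted p = 0.01), while CDK1 did not pass, at 30.2, 24.8 and 27.0 CPM with Compound A (log2 change -0.30 ± 0.11, edgeR adjusted p = 0.0812). CDC25C was as far down in size (-0.48) but had a standard error of 0.26, and CDC25B stood at 267, 229 and 231 CPM (log2 change -0.14 ± 0.09, edgeR adjusted p = 0.317).

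**Figure D4:**
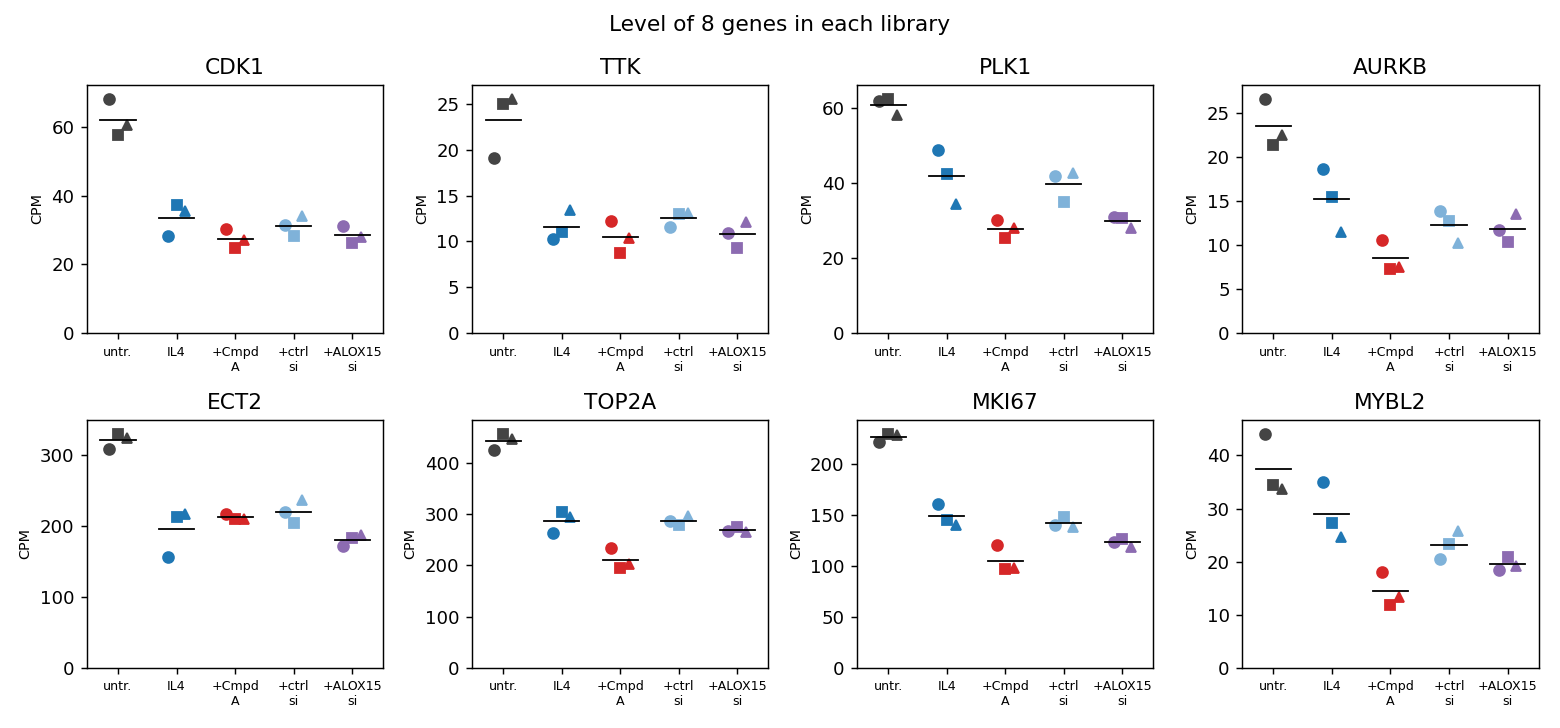
Level in CPM (vertical axis, from 0) of 8 genes in each library by group, as circles, squares and triangles for replicates 1, 2 and 3, with bars at the group means; untr. is untreated, Cmpd A Compound A, ctrl si control siRNA and ALOX15 si ALOX15 siRNA, all with IL4. CDK1 and TTK step down with IL4 and are close to that level in the other treated groups, PLK1, AURKB, TOP2A, MKI67 and MYBL2 are lowest with Compound A, and ECT2 is lowest in IL4 replicate 1 and with ALOX15 siRNA.

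Checkpoint and kinetochore genes mostly did not pass with Compound A. UBE2C alone of the 7 checkpoint and anaphase genes fell, from 26.7, 23.2 and 17.8 CPM to 14.7, 12.7 and 14.7 CPM, by 37.9% (log2 change -0.69 ± 0.14, edgeR adjusted p = 0.00265). BUB3 stood at 121, 114 and 125 CPM, within the range of the IL4 libraries (log2 change 0.06 ± 0.09, edgeR adjusted p = 0.657). MAD2L1, PTTG1, CDC20, BUB1B and ESPL1 had log2 changes of -0.11, -0.18, -0.29, -0.31 and -0.44. Of 6 kinetochore genes CENPF fell, by 17.1%. CENPA was nearly level, at 11.6, 13.1 and 10.8 CPM with IL4 and 12.9, 10.7 and 9.97 CPM with Compound A (log2 change -0.07 ± 0.13, edgeR adjusted p = 0.733). NDC80, the kinetochore gene furthest down, had only 3.65, 2.34 and 4.08 CPM with Compound A, and its fall was not detectable at this depth (log2 change -0.52 ± 0.26, edgeR adjusted p = 0.178).

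On the spindle 5 of 10 genes fell: NUSAP1, TPX2, DLGAP5, KIF4A and KIF11. NUSAP1, which bundles spindle microtubules, went from 24.4, 29.6 and 25.7 CPM to 22.2, 15.9 and 14.7 CPM (log2 change -0.59 ± 0.13, edgeR adjusted p = 0.00452). TPX2 had the smallest adjusted p of the members, from 89.5, 81.0 and 85.9 CPM to 62.9, 58.4 and 54.1 CPM (log2 change -0.54 ± 0.08, edgeR adjusted p = 0.000137). Both sets were separated from IL4. HMMR, a spindle pole protein, overlapped, at 20.9, 29.6 and 26.0 CPM and 28.2, 20.4 and 21.9 CPM (log2 change -0.12 ± 0.13, edgeR adjusted p = 0.57).

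In cytokinesis KIF20A, PRC1, ANLN and RACGAP1 fell and KIF23 and ECT2 did not pass. KIF20A went from 18.1, 16.5 and 14.4 CPM to 11.1, 10.3 and 8.91 CPM, by 37.8% (log2 change -0.68 ± 0.13, edgeR adjusted p = 0.00238). ECT2 stood at 217, 210.1 and 210.4 CPM, almost the level of IL4 replicates 2 and 3 and above replicate 1 (log2 change 0.12 ± 0.09, edgeR adjusted p = 0.381). Without IL4 replicate 1 the log2 change of ECT2 was -0.02. Chromosome structure genes fell in 5 of 7 cases. NCAPH, the kleisin subunit of condensin I, went from 19.0, 18.0 and 17.5 CPM to 13.2, 10.9 and 11.2 CPM (log2 change -0.62 ± 0.12, edgeR adjusted p = 0.00254), MKI67 to 120.4, 97.0 and 98.4 CPM, by 29.2%, and TOP2A to 234, 195 and 203 CPM, by 26.7%. The least changed was SMC4, at 191, 181 and 178 CPM (log2 change -0.11 ± 0.07, edgeR adjusted p = 0.28).

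Transcript GC content, the share of G and C in a gene's transcripts (median over those annotated), moved with these values. In IL4 replicate 1, 28 of the 54 genes were above both group mates and 16 below both, and the difference from the mates rose with GC content across genes (Pearson r = 0.71, Spearman rho = 0.77, n = 54 genes of the same libraries, given as a description). The lowest was MAD2L1, 0.83 log2 units below its mates, and AURKB was 0.48 above. The Compound A changes ran the other way, r = -0.50 (-0.25 without IL4 replicate 1), and the IL4 changes r = 0.46. Genes that fell with Compound A had a median GC content of 48.3% and those that did not pass 42.3%. A per-library correction removed each library's trend with GC content over the tested genes, so a weaker relation follows from how it is made. With this correction the relation of the Compound A changes was r = -0.07, the median log2 change -0.47 and the count 38, beside 9.32% of all genes. All 29 genes remained and ASPM, BUB1B, CDK1, CENPE, CKAP2L, KIF23, NUF2, SMC2 and SMC4 were added. Without IL4 replicate 1, 33 fell, beside 5.84% of all genes, and the median was -0.37. What lies behind the GC trend was not tested.

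**Figure D5:**
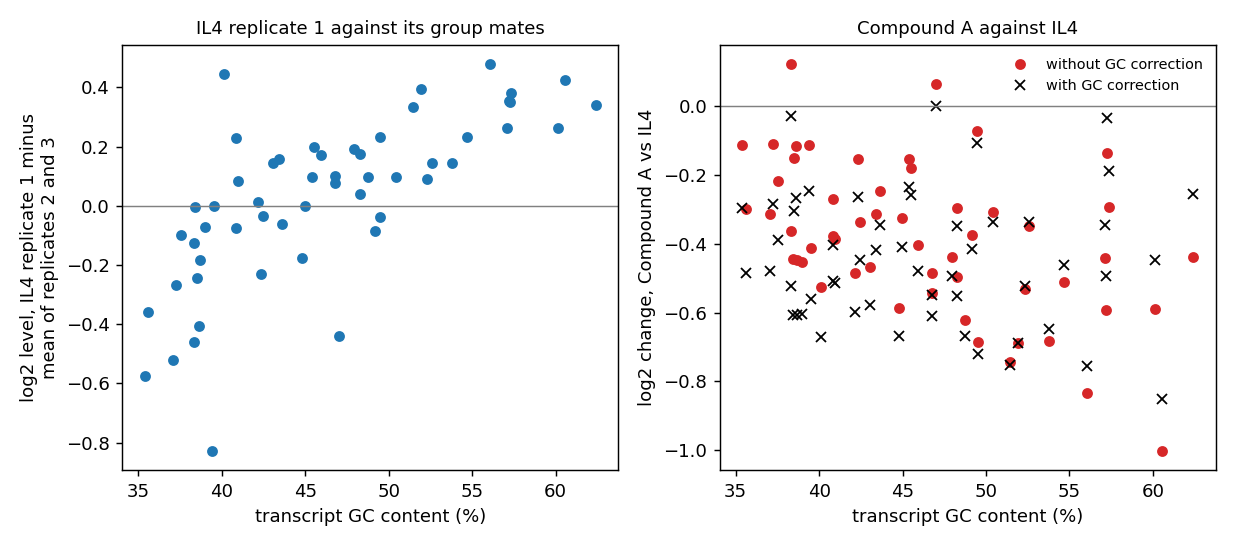
Left, log2 level in IL4 replicate 1 minus the mean of IL4 replicates 2 and 3 against transcript GC content (%) for each of the 54 tested genes. Right, log2 change of Compound A against IL4 on the same axis, without (circles) and with (crosses) a correction for GC content. The left points climb with GC content (r = 0.71), and the right circles fall with it (r = -0.50). The crosses do not (r = -0.07), as the correction is made to remove such a trend.

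Compound A was set against control siRNA as well, a comparison that uses no library of the IL4 group. The siRNA and Compound A groups differ in 2 ways, the siRNA itself and the compound. All 54 genes had log2 changes below 0, with a median of -0.27. Those that fell numbered 13, where 3.42% of all genes did, and none rose, where 1.86% did (none at an unadjusted p under 0.05, beside 9.03% of all genes, and none by DESeq2). The 13 were PLK1, BUB1, BUB1B, TPX2, NUSAP1, KIF20A, PRC1, TOP2A, MKI67, NCAPD2, NCAPH, FOXM1 and MYBL2. TOP2A stood at 286, 278 and 296 CPM with control siRNA against 234, 195 and 203 CPM with Compound A, without overlap (log2 change -0.45 ± 0.07, edgeR adjusted p = 0.000541). MKI67 was at 141, 148 and 139 CPM against 120.4, 97.0 and 98.4 CPM (log2 change -0.44 ± 0.08, edgeR adjusted p = 0.00183), and MYBL2 at 20.4, 23.4 and 25.8 CPM against 18.1, 11.9 and 13.3 CPM (log2 change -0.68 ± 0.17, edgeR adjusted p = 0.0214). The count was 25 without IL4 replicate 1, a library of neither group, with 12945 genes then tested. It was 3 without Compound A replicate 2, 5 without replicate 3, and 5, 6 and 7 without control siRNA replicates 1, 2 and 3. MKI67, TOP2A and TPX2 passed under all 25 settings.

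For control siRNA on top of IL4, no member passed edgeR's test in either direction, and no gene of the 12795 did (0% of all genes each way). At an unadjusted p under 0.05, 1 member was lower and 0 higher, beside 2.37% and 2.54% of all genes, and DESeq2 called 0 members and 2 of all genes. In 5 members the control siRNA libraries lay below all IL4 libraries and in 0 above them, beside 4.13% and 4.49% of all genes. The median log2 change was -0.07. Against untreated cells, the control siRNA group repeated the fall in a second set of IL4-treated libraries, although the untreated libraries are shared. Of the 54 genes 52 fell, where 9.36% of all genes did, none rose, where 9.93% did, and all 54 had every control siRNA library below every untreated one, as 19.7% of all genes did. None was higher at an unadjusted p under 0.05, beside 14.9% of all genes, and none by DESeq2. The median was -0.69. The 2 that did not pass were BUB3, at 123, 119 and 127 CPM against 143, 138 and 146 CPM (log2 change -0.21 ± 0.09, edgeR adjusted p = 0.102), and SMC4, at 216, 204 and 218 CPM against 221, 244 and 238 CPM (log2 change -0.14 ± 0.07, edgeR adjusted p = 0.168).

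ALOX15 siRNA against control siRNA asked what loss of the ALOX15 transcript did in IL4-treated cells. None of the 54 genes passed in either direction in edgeR's test, where 0.383% of all genes fell and 0.313% rose, and DESeq2 also called none. At an unadjusted p under 0.05, 12 were lower and 0 higher, where 4.24% of all genes were lower and 4.67% higher. Of the 54, 48 had values below 0, and the median log2 change was -0.17, against 0.00 over all genes. In 22 genes the ALOX15 siRNA libraries lay below all control siRNA libraries, and in 1 gene, CDC25B, above them, against 9.18% and 9.49% of all genes. Other settings did call members. Without IL4 replicate 1, a library of neither group, BUB1B, ECT2, ESPL1 and PLK1 passed as lower, and without IL4 replicate 3 PLK1 did. Over all genes 0.958% and 0.464% fell in these fits. The correction for GC content called the same 4, where 1.0% of all genes fell. A fit of only the 2 siRNA groups called these 4 and MKI67 as lower and CDC25B as higher, where 1.24% of all genes fell and 1.39% rose.

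The 3 largest changes were in ESPL1, BUB1B and PLK1. ESPL1 read 10.7, 13.6 and 13.8 CPM under control siRNA and 9.12, 7.85 and 7.76 CPM under ALOX15 siRNA (log2 change -0.62 ± 0.17, edgeR adjusted p = 0.12). BUB1B was at 23.2, 18.4 and 21.3 CPM and 15.2, 15.4 and 13.6 CPM (log2 change -0.51 ± 0.13, edgeR adjusted p = 0.075). PLK1 was at 42.0, 34.9 and 42.7 CPM and 31.0, 30.8 and 27.9 CPM (log2 change -0.42 ± 0.12, edgeR adjusted p = 0.13). In all 3 the ALOX15 siRNA libraries were close together and below the control siRNA ones. ECT2, the other of these 4, at 219.7, 204 and 237 CPM and 171, 183 and 188 CPM, was lower without overlap too (log2 change -0.28 ± 0.09, edgeR adjusted p = 0.236). CDC25B was the other way, at 251, 255 and 242 CPM and 285, 285 and 271 CPM (log2 change 0.17 ± 0.09, edgeR adjusted p = 0.63), and NDC80, the highest value of all, had a standard error larger than its change (log2 change 0.24 ± 0.27, edgeR adjusted p = 0.874). Genes much lowered by Compound A did not pass here: MYBL2 had 18.5, 20.9 and 19.1 CPM (log2 change -0.25 ± 0.16, edgeR adjusted p = 0.728), AURKB 11.7, 10.4 and 13.6 CPM (log2 change -0.04 ± 0.19, edgeR adjusted p = 0.982) and TOP2A 268, 274 and 266 CPM (log2 change -0.09 ± 0.07, edgeR adjusted p = 0.77).

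Whether Compound A and ALOX15 siRNA differed was tested directly, as the Compound A change against IL4 minus the siRNA change against control siRNA. TOP2A alone passed (difference -0.36 ± 0.10 on the log2 scale, edgeR adjusted p = 0.0335), where 3.20% of all genes passed in that direction. This count of 1 in 54 is not above the share of all genes. None passed the other way, where 1.94% did (DESeq2 0, and 1 at an unadjusted p under 0.05, beside 9.06% of all genes, ECT2, at 0.41). At an unadjusted p under 0.05, 18 of the 54, TOP2A among them, had its sign, beside 10.8% of all genes. The median difference was -0.22. AURKB, NDC80 and MYBL2 had the largest values, and AURKB and MYBL2 stood at -0.79 ± 0.26 and -0.75 ± 0.23 (edgeR adjusted p = 0.0869 and 0.0647). TOP2A lost its call when any 1 of the 3 ALOX15 siRNA libraries was left out, and likewise IL4 replicate 2, replicates 2 and 3 of Compound A, and replicates 1 and 2 of control siRNA, each in turn. Leaving out IL4 replicate 3 made the number lower 6, as did leaving out Compound A replicate 1, and it was 2 when either untreated replicate 1 or IL4 replicate 1 was dropped. ECT2 passed as higher without IL4 replicate 1 or 3. The correction for GC content gave 9 lower and 1 higher.

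Genes around these in the same pathway, from 6 lists of other members, differed between lists. Over all genes 11.6% fell and 11.2% rose with IL4, and 8.07% fell and 6.35% rose with Compound A. Of 16 genes of the anaphase-promoting complex and its partners, only ANAPC1, its largest subunit, fell with IL4 (log2 change -0.27 ± 0.06, edgeR adjusted p = 0.00396), although all 16 values were below 0. With Compound A ANAPC13 rose (log2 change 0.31 ± 0.10, edgeR adjusted p = 0.0394), the 1 gene that passed edgeR's test, a share near that of all genes. DESeq2 called 1 fallen and 1 risen. ANAPC13 did not pass for Compound A against control siRNA (log2 change 0.17 ± 0.10, edgeR adjusted p = 0.343). Of 28 further kinetochore genes 17 fell with IL4 and none rose. SGOL1 (shugoshin), which protects centromeric cohesion, fell most (log2 change -1.02 ± 0.13, edgeR adjusted p = 5.67e-06), followed by SKA1 of the outer kinetochore (log2 change -0.92 ± 0.15, edgeR adjusted p = 0.000142). With Compound A 6 of the 28 fell, among them CENPM (log2 change -0.94), ZWINT (-0.68) and SPAG5 (-0.57).

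Of 11 other kinesins 8 fell with IL4, led by KIF15 (log2 change -0.76 ± 0.16, edgeR adjusted p = 0.00131) and KIF14 (log2 change -0.66 ± 0.10, edgeR adjusted p = 3.87e-05), and with Compound A 1 fell, KIF22 (log2 change -0.48 ± 0.11, edgeR adjusted p = 0.00846), and 1 rose, a share near that of all genes. Of 16 genes of cohesin and condensin II 13 fell with IL4, among them ESCO2, which acetylates cohesin (log2 change -0.85 ± 0.14, edgeR adjusted p = 0.000157), and the condensin II subunit NCAPG2 (log2 change -0.72 ± 0.10, edgeR adjusted p = 1.85e-05). Compound A lowered 4 of these, including ESCO2 (-0.65), CDCA5 (-0.54) and NCAPD3 (-0.48), and raised 2 (1 with DESeq2).

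Of 18 tested genes that brake mitotic entry or belong to the DREAM and MuvB complexes, 4 fell and 2 rose with IL4 (2 and 2 with DESeq2), so the share that rose was near that of all genes. CDKN1A (p21), an inhibitor of cyclin-dependent kinases, rose (log2 change 0.53 ± 0.06, edgeR adjusted p = 6.39e-07), and LIN9, a MuvB subunit, fell (log2 change -0.87 ± 0.16, edgeR adjusted p = 0.000499). Compound A lowered 2 of the 18 and raised 2, near the shares of all genes (8.07% and 6.35%). Those lowered were PKMYT1, a kinase that holds CDK1 inactive (log2 change -1.16 ± 0.27, edgeR adjusted p = 0.00713), and CDKN2C (log2 change -0.80 ± 0.21, edgeR adjusted p = 0.0178). PKMYT1 was spread with IL4, at a mean of 6.33 ± 3.03 CPM (SD, n = 3). Neither passed for Compound A against control siRNA (edgeR adjusted p = 0.137 and 0.16). Of the 2 raised, E2F5 had the larger change (log2 change 0.52 ± 0.15, edgeR adjusted p = 0.0281), but it did not pass against control siRNA. The 2 that rose there were LIN52 (log2 change 0.61 ± 0.15, edgeR adjusted p = 0.022) and GADD45A (log2 change 0.48 ± 0.07, edgeR adjusted p = 0.00049). None of the 18 fell there, DESeq2 called 1 risen, and 1.86% of all genes rose.

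Genes of S phase, which precedes mitosis, fell in 24 of 40 cases with IL4 and in 24 of 40 with Compound A, and none rose. POLE2, a DNA polymerase epsilon subunit, led with IL4 (log2 change -1.04 ± 0.27, edgeR adjusted p = 0.00742). With Compound A the licensing factor CDT1 (log2 change -1.27 ± 0.26, edgeR adjusted p = 0.00307), GINS2 of the replicative helicase (log2 change -1.24 ± 0.22, edgeR adjusted p = 0.0013) and MCM5, a subunit of the same helicase (log2 change -1.11 ± 0.17, edgeR adjusted p = 0.000347), were among those furthest down. The median of the 40 was -0.43 with IL4 and -0.51 with Compound A, beside -0.62 and -0.38 for the mitosis genes. This order was reversed in the comparisons that use no library of the IL4 group. There the S phase median was -0.58 for control siRNA against untreated and -0.33 for Compound A against control siRNA. In the latter, 12 of the 40 fell and 0 rose, where 3.42% and 1.86% of all genes did. MCM5 and GINS2 passed there and CDT1 did not (edgeR adjusted p = 0.0803). With ALOX15 siRNA no gene of these 6 lists passed edgeR's test or DESeq2's. At an unadjusted p under 0.05, 2 S phase genes were lower and 0 higher, with a median of -0.10, where 4.24% of all genes were lower and 4.67% higher, so these are near the share of all genes. Lower and higher numbered 3 and 0 in the kinetochore list, 1 and 0 in the anaphase-promoting complex, 0 and 1 in the kinesins, 2 and 0 in cohesin and condensin II, and 2 and 1 among the brakes. The difference between Compound A and ALOX15 siRNA passed for 7 of the 40 S phase genes, all more lowered by Compound A, where 3.20% of all genes passed in that direction.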

How the data were processed

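The authors used Bowtie2 2.1.0, RSEM 1.2.15 and hg38, per the submitters' processing notes. The deposited table holds expected counts, estimates that need not be whole (3.63% to 4.19% of values per library were not). Neither annotation nor strandedness is stated in the sources used here, and 0 columns of per-sample values were left unused. Counts were rounded, filtered with filterByExpr, which kept 99.87% or more of every library's counts, and scaled by TMM. All 15 libraries were fitted together in edgeR 4.0.16 (R 4.3.3, robust quasi-likelihood, 1 coefficient per group), with p-values adjusted by Benjamini-Hochberg over 12795 genes and a threshold of 0.05. The SE of a log2 change is its size divided by the square root of F. The fit was tested on simulated data. The members, the 6 wider lists and the comparisons were chosen with earlier results of these data known. Every member could be named, with values in each library for the most and least changed member of each role, and up to 4 genes per wider list. Any gene named outside this rule was picked with its values in view. Alternatives were RLE and upper-quartile scaling, 2 other filters, unrounded counts, DESeq2 1.42.0, fits restricted to the groups compared, a replicate block, a loess correction for transcript GC content (span 0.3, a value for 95.2% of tested genes), that correction with the block, and each library left out. Transcript GC came from GENCODE gene models on GRCh38, and promoter windows from RefSeq (GRCh38.p14).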

Additional observations from a re-analysis of the deposited data

How the results depend on the processing

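No called value changed direction under any alternative. Values that had not passed could change sign, as ECT2 did for Compound A against IL4, at 0.12, then -0.02 without IL4 replicate 1 and -0.03 with the GC correction. With 1 library left out at a time, the number of fallen mitosis genes ran from 44 to 53 for IL4, 15 to 35 for Compound A against IL4, 3 to 25 for Compound A against control siRNA, 0 to 4 for ALOX15 siRNA, 46 to 54 for control siRNA against untreated, and 0 to 6 for the difference of Compound A and ALOX15 siRNA. The number risen was 0 throughout, except 0 to 1 for the difference. A fit of only the groups compared gave 12 for Compound A against IL4, 23 for Compound A against control siRNA, and 5 fallen and 1 risen (CDC25B) for ALOX15 siRNA. The GC correction gave 20 for Compound A against control siRNA, 4 for ALOX15 siRNA, and 9 fallen and 1 risen for the difference, which was 2 with upper-quartile scaling and 2 with DESeq2. Some of these fits held fewer libraries, and the cause of these moves was not tested.

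Replicate numbers were not taken to pair the libraries, since not every same-numbered pair correlated above 0.1: 8 of 30 did (median 0.02, range -0.13 to 0.29), against 7 of 60 pairs with different numbers (median -0.01). With the replicate block 52, 33 and 17 genes fell for IL4, Compound A against IL4 and Compound A against control siRNA, 0 for ALOX15 siRNA, and 5 fell and 1 rose in the difference. The block with the GC correction gave 30 for Compound A against control siRNA, 6 fallen and 1 risen for ALOX15 siRNA, and 14 and 1 for the difference. Over all settings, 42 of the 49 genes fallen with IL4 and 45 of the 52 fallen with control siRNA against untreated passed every time. For TTTGAA or TTCGAA in place of TTTGAA alone, the share of promoter windows was 66.1%, against 16.4% of all. Low counts limit SPC24, SPC25, NDC80, CDC25C and CDCA3.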

Other observations

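Across the 54 tested mitosis genes, the size of the changes in 2 comparisons that share no library was related weakly or not visibly, given here as descriptions over genes, which are not independent. The change of control siRNA against untreated and that of Compound A against IL4 had r = 0.33 (0.47 with the GC correction). With the control groups exchanged, IL4 against untreated and Compound A against control siRNA had r = -0.01 (0.18 with the correction). IL4 against untreated and ALOX15 siRNA against control siRNA had r = 0.10 (0.26 with the correction), and Compound A against IL4 and ALOX15 siRNA against control siRNA had r = 0.17 (0.06 with it).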
